A study of Homo sapiens with 8 samples.

Results

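Expression of 10 circadian repressor genes, the negative limb of the circadian clock, was measured in the human melanoma line A375 after transfection with constructs of the long noncoding RNA SLNCR1. The genes were taken by name from the 56638 entries of each of 3 deposited tables, and all 10 were found in each table: PER1, PER2, PER3, CRY1, CRY2, NR1D1, NR1D2, BHLHE40, BHLHE41 and C1orf51, now called CIART. The set was chosen by clock role with its log2 fold changes and adjusted p-values in these tables already known, so the values are given as a description and the counts over them are no independent evidence of a direction.

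The cells carried a pcDNA3.1(-) plasmid with full-length SLNCR1, with SLNCR1 conserved, with SLNCR1 delta conserved, or, as the vector group, with no insert. The labels name the constructs in this way, and by these names the second holds the conserved part of the RNA and the third lacks it. Each of the 4 groups had 2 libraries. All cells grew in DMEM with 10% FBS, were transfected with Lipofectamine 2000 at 24 h after seeding and were harvested 48 h later. No time course was sampled, the labels mention no step that sets the clocks of the cells to 1 phase, and expression from a plasmid is added to what the cells make themselves. A375 is 1 tumour line. The deposited group means were resolved into whole reads for each library, and in each pair library a is the one with more reads and library b the one with fewer. Because bulk RNA was measured, fewer cells with a transcript and less of it per cell cannot be told apart.

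The circadian clock of mammalian cells is a feedback loop of transcription. The factors CLOCK and ARNTL (BMAL1) bind as a pair to E-boxes and activate genes of the period (PER) and cryptochrome (CRY) families, whose proteins return to the nucleus and inhibit that pair. A second loop runs through the nuclear receptors REV-ERB alpha and beta, encoded by NR1D1 and NR1D2, which repress ARNTL. DEC1 and DEC2, encoded by BHLHE40 and BHLHE41, bind E-boxes themselves and compete with the activators, and CIART is a further repressor of the activator pair. Their genes are themselves targets of the pair, so repressors and output genes tend to move together in tissues with a running clock. In melanocytes and skin the clock is known to take part in pigmentation and in the timing of cell division.

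Promoter stretches of the 10 genes are printed because the E-box is the element through which the loop is known to act. They are from RefSeq (GRCh38.p14), run 5′ to 3′ on the strand of the gene, and have the matched motif in capitals. Windows of 250 bases before each RefSeq start were searched on both strands for the E-box CACGTG and for the related E-prime-box CACGTT, read as AACGTG on the other strand. The E-box was found in 5 of the 10 genes and in 7.73% of 27305 genes with a RefSeq promoter, and the E-prime-box in 4 of the 10 and in 5.53% of all. At least 1 of both motifs was found in 9 of the 10 genes and in 12.7% of all. PER3 held neither. It held the D-box TTANGTAA, the element of the PAR bZIP factors, which NR1D2 held as well and which 2.48% of all genes held. The cyclic AMP response element TGACGTCA was found in 0 of the 10 genes and in 2.03% of all. Its half-site TGACG was found in 4 of the 10 (PER2, CRY1, CRY2 and NR1D2) and in 24.9% of all. AGGTCA, the half-site of REV-ERB and ROR receptors, was found in 2 of the 10 (PER1 and CRY2) and in 14.6%. These matches describe letters in these windows and show no binding. By GENCODE 29, exons of annotated transcripts cover all 250 bases of the CRY1 and BHLHE40 windows and 223 of the BHLHE41 window. They cover 136 bases of the NR1D1 window and 126 of the CRY2 window shown, so the stretches searched in all of these include transcribed bases. For the PER2 window and the PER3 window shown, the bases just after the RefSeq start were not found in a GENCODE 29 transcript of the gene.
PER1: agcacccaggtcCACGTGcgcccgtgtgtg
PER2: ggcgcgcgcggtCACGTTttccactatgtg
PER3: cgagcccgcgcgTTATGTAAcgcgccccgg
CRY1: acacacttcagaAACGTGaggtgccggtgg
CRY2: acacatggtaggAACGTGagggggcgggcc
NR1D1: gcgcaagagctcAACGTGccggctgttgga
NR1D2: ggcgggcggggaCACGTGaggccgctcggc
BHLHE40: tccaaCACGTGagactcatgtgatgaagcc
BHLHE41: tggtacgttccgCACGTGagctgggtgctg
C1orf51: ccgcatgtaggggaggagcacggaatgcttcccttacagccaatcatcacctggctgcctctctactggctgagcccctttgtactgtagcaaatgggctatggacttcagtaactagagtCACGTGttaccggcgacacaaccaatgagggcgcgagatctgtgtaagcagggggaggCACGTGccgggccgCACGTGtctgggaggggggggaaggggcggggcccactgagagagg

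The PER1 stretch is at chr17:8152560-8152589 on the minus strand and its E-box begins 173 bases before the start. The PER2 stretch is at chr2:238288790-238288819 (minus strand, motif 197 bases before the start) and that of PER3, from the first of its RefSeq starts, at chr1:7784102-7784131 (plus strand, 177 bases). CRY1 is shown at chr12:107093621-107093650 (minus strand, 89 bases) and CRY2, from the second of its RefSeq starts, at chr11:45847275-45847304 (plus strand, 188 bases). The NR1D1 stretch is at chr17:40100740-40100769 (minus strand, 168 bases). NR1D2 had 2 E-boxes before the second of its starts, and the one shown, 155 bases before it, is at chr3:23945954-23945983 on the plus strand. The BHLHE40 stretch is at chr3:4979187-4979216 (plus strand, 245 bases) and the BHLHE41 stretch at chr12:26125068-26125097 (minus strand, 48 bases). For C1orf51 the 239 bases before its first exon are given, at chr1:150282304-150282542 on the plus strand, because they hold 3 E-boxes, which begin 129, 71 and 57 bases before the start.

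With full-length SLNCR1, 9 of the 10 repressor genes were lower than with vector at the authors' adjusted p under 0.05, and BHLHE40 was not called. Of the 33548 genes tested there, 0.844% were called lower. SLNCR1 delta conserved gave the same count, 9 lower and 1 not called, where 1.14% of 34744 genes were called lower, and the 1 gene was again BHLHE40. With SLNCR1 conserved 0 of the 10 were called by the authors' DESeq test in either direction, and 0 had an unadjusted p under 0.05 in that test or in limma. Of 34347 genes, 0.0175% were called higher and 0% lower. An unadjusted p under 0.05 was held by 1.34% of those genes in the DESeq test and by 874 of 16058 in limma. In the authors' deposited tables the median log2 fold change of the 10 genes was -1.57 with SLNCR1, 0.01 with SLNCR1 conserved and -1.46 with SLNCR1 delta conserved, while the median of all genes with a mean of at least 10 was 0.00, 0.00 and -0.01. The 3 tables share the vector libraries. A linear model (limma) on log2(normalized count + 1) of the recovered libraries called the same 9 genes lower with SLNCR1 and with SLNCR1 delta conserved, against 7.41% and 5.26% of 16058 genes, and 0 of the 10 with SLNCR1 conserved, where 0.00623% of genes were higher and 0% lower.

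The reads assigned to genes numbered 10097194 and 9090649 with SLNCR1, 11340614 and 10279988 with SLNCR1 conserved, 9187241 and 8222868 with SLNCR1 delta conserved and 12015394 and 11321294 with vector, so the groups with low repressors were also the shallower ones. The 10 genes together took 0.0441% and 0.0420% of the reads with SLNCR1, 0.0923% and 0.0922% with SLNCR1 conserved, 0.0450% and 0.0450% with SLNCR1 delta conserved and 0.0900% and 0.0914% with vector. The part of depth in the result was not tested beyond scaling to it. The first principal component of all genes (41.3% of the variance) had the SLNCR1 and SLNCR1 delta conserved libraries between 14.2 and 27.0 and the SLNCR1 conserved and vector libraries between -20.3 and -14.1. SLNCR1 library b lay apart on the second (15.9%), at -24.0 against -4.93 to 18.1 for the others, and without it the 9 genes were still called lower than vector. LINC00511 was taken as the entry that holds the transfected RNA, a link that was not tested here. It had 859 and 880 normalized counts with SLNCR1 and 1045 and 1133 with SLNCR1 conserved. It had 1147 and 864 with SLNCR1 delta conserved and 623 and 617 with vector, so all 6 construct libraries were above both vector libraries. With SLNCR1 conserved such a position held for 25.1% of all genes. The authors' DESeq test called LINC00511 higher with SLNCR1 (adjusted p = 0.00559) and with SLNCR1 conserved (adjusted p = 5.89e-15). It was not called with SLNCR1 delta conserved (adjusted p = 0.145). Of 9 melanocyte lineage markers, SOX10 was abundant in all libraries (2919 to 3678 normalized counts), while the pigment enzymes TYR and DCT were at or near 0. Whether the paired libraries stem from separate cultures is not stated, so p-values measure the spread between these libraries, which may be technical.

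**Figure D1:**
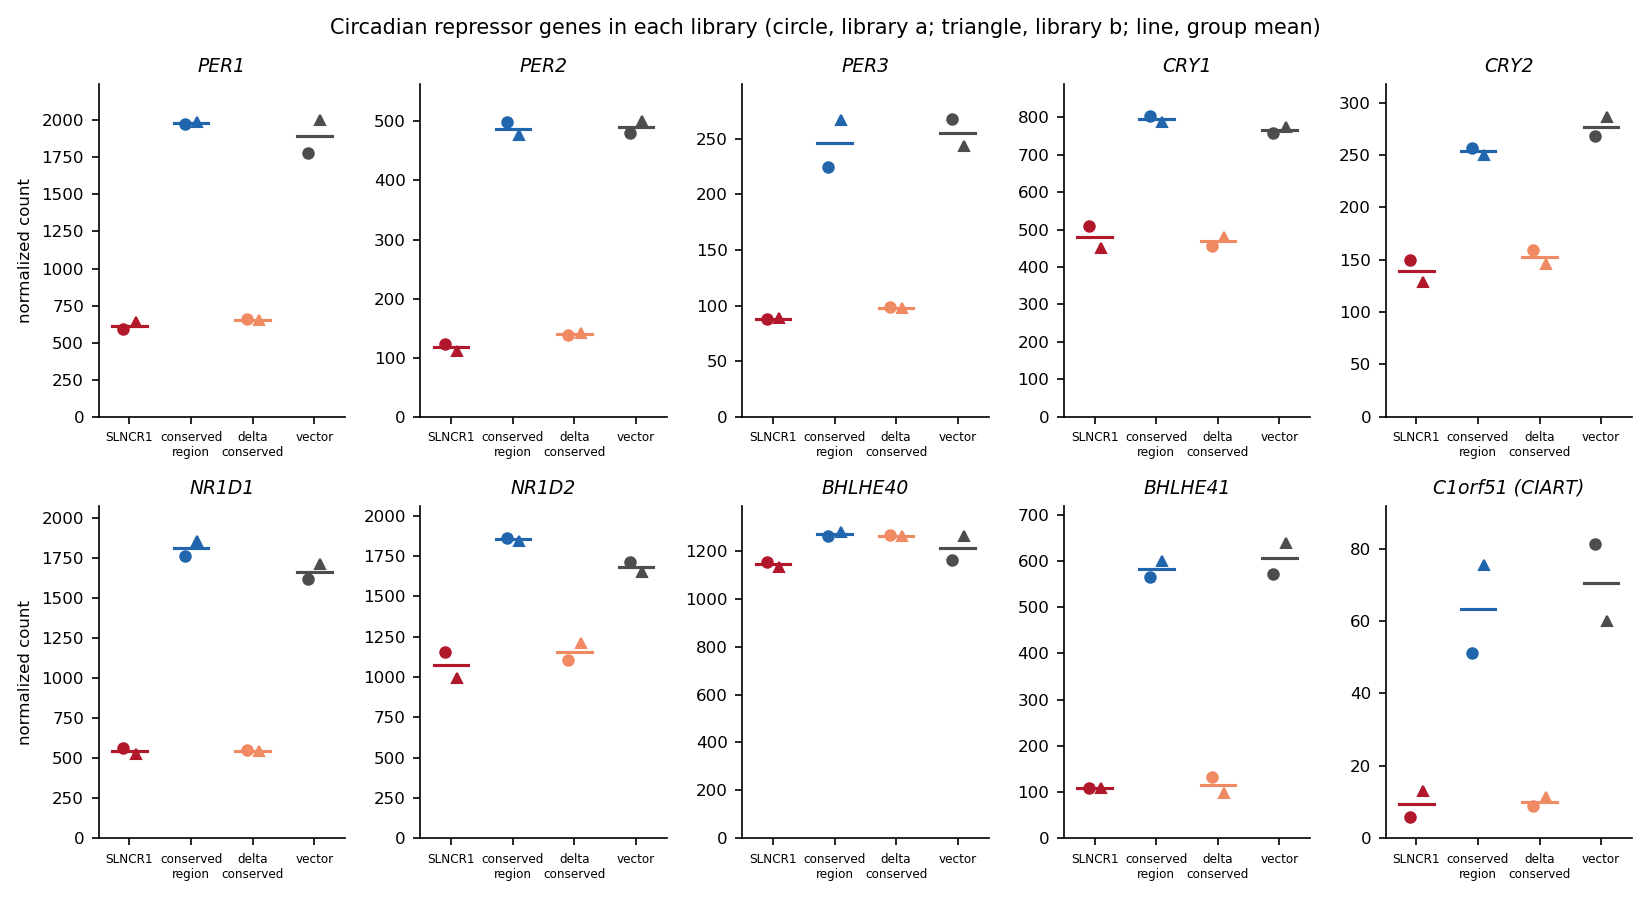
Normalized count of each of the 10 genes (y axis, from 0, own scale for each panel) in the 2 libraries of each group (x axis; circle, library a; triangle, library b; line, group mean). In every panel but that of BHLHE40 the SLNCR1 and SLNCR1 delta conserved libraries lie together below the SLNCR1 conserved and vector libraries.

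The period genes encode the partners that carry cryptochromes into the repressor complex, and PER1 and PER2 are also induced quickly by many signals. PER1 had 592 and 637 normalized counts with SLNCR1, 1972 and 1986 with SLNCR1 conserved, 656 and 652 with SLNCR1 delta conserved and 1777 and 2004 with vector. The SLNCR1 and SLNCR1 delta conserved libraries were all far below the vector pair, and the SLNCR1 conserved pair lay within the range of the vector pair. The PER1 means were 3.08-fold lower with SLNCR1 and 2.89-fold lower with SLNCR1 delta conserved than with vector. The log2 fold change of PER1 in the authors' deposited tables was -1.62 with SLNCR1 (adjusted p = 3.79e-28), 0.05 with SLNCR1 conserved (adjusted p = 1) and -1.53 with SLNCR1 delta conserved (adjusted p = 9.75e-27).

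PER2, whose mutation alone disturbs the daily rhythm of mice, had 124 and 111 normalized counts with SLNCR1, 498 and 477 with SLNCR1 conserved, 139 and 142 with SLNCR1 delta conserved and 481 and 501 with vector. Its estimated fall was the largest of the 3 period genes, 4.19-fold lower with SLNCR1 and 3.50-fold lower with SLNCR1 delta conserved than with vector in the means, and both pairs were clear of the vector pair. In the authors' deposited tables the log2 fold change of PER2 was -2.06 with SLNCR1 (adjusted p = 8.24e-34), -0.03 with SLNCR1 conserved (adjusted p = 1) and -1.81 with SLNCR1 delta conserved (adjusted p = 9.08e-33), and PER2 ranked 4 by p in the tables of SLNCR1 and of SLNCR1 delta conserved.

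PER3, a period gene that the mouse clock can run without, had 88.0 and 88.8 normalized counts with SLNCR1, 225 and 267 with SLNCR1 conserved, 98.3 and 97.8 with SLNCR1 delta conserved and 268 and 243 with vector. The low pairs differed by less than 1 count within a group, and the other 2 pairs overlapped each other. PER3 had a log2 fold change in the authors' deposited tables of -1.53 with SLNCR1 (adjusted p = 9.49e-13), -0.07 with SLNCR1 conserved (adjusted p = 1) and -1.39 with SLNCR1 delta conserved (adjusted p = 6.46e-12). The library kit does not mark strand, and other genes overlap 16.7% of the exonic bases of PER3 in GENCODE 29. On the other strand UTS2 overlaps 10.7% and the antisense gene Z98884.1 overlaps 5.95%, so reads there cannot be assigned to 1 gene. The entry of UTS2, the gene of the peptide urotensin 2, held between 12 and 32 reads a library.

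The cryptochromes bind the activator pair and are the main inhibitors in the repressor complex. The estimated falls of both were smaller than those of the period genes. CRY1 had 511 and 452 normalized counts with SLNCR1, 804 and 786 with SLNCR1 conserved, 457 and 480 with SLNCR1 delta conserved and 757 and 773 with vector. The SLNCR1 conserved pair of CRY1 was slightly above the vector pair and the other 4 construct libraries were below it, with a log2 fold change in the authors' deposited tables of -0.67 for SLNCR1 (adjusted p = 3.30e-05), 0.04 for SLNCR1 conserved (adjusted p = 1) and -0.71 for SLNCR1 delta conserved (adjusted p = 1.17e-08). CRY2 had 150 and 128 normalized counts with SLNCR1, 257 and 250 with SLNCR1 conserved, 159 and 145 with SLNCR1 delta conserved and 268 and 286 with vector. All 6 construct libraries of CRY2 were below both vector libraries, by little with SLNCR1 conserved. Its log2 fold change in the authors' deposited tables was -0.99 with SLNCR1 (adjusted p = 6.59e-06), -0.14 with SLNCR1 conserved (adjusted p = 1) and -0.87 with SLNCR1 delta conserved (adjusted p = 2.27e-05).

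The receptors REV-ERB alpha and beta repress through the corepressor NCOR1 and the deacetylase HDAC3. NR1D1 (REV-ERB alpha) had 565 and 525 normalized counts with SLNCR1, 1763 and 1853 with SLNCR1 conserved, 549 and 542 with SLNCR1 delta conserved and 1615 and 1713 with vector. The 4 low libraries lay between 525 and 565, at 32.7% of the vector mean with SLNCR1 and 32.8% with SLNCR1 delta conserved, and the SLNCR1 conserved pair was above the vector pair. The authors' deposited tables gave NR1D1 a log2 fold change of -1.61 with SLNCR1 (adjusted p = 1.13e-41), 0.10 with SLNCR1 conserved (adjusted p = 1) and -1.61 with SLNCR1 delta conserved (adjusted p = 2.09e-64), the lowest p of that table. NR1D1 shares 263 exonic bases, 9.49% of its own, with THRA on the other strand. THRA, which encodes thyroid hormone receptor alpha, had 828 and 875 normalized counts with SLNCR1, 778 and 780 with SLNCR1 conserved, 809 and 786 with SLNCR1 delta conserved and 852 and 829 with vector, so this neighbour did not follow NR1D1.

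NR1D2 (REV-ERB beta) had 1156 and 991 normalized counts with SLNCR1, 1864 and 1843 with SLNCR1 conserved, 1104 and 1210 with SLNCR1 delta conserved and 1714 and 1648 with vector. Its estimated fall was the smallest of the 9, with that of CRY1 next: the authors' deposited tables gave a log2 fold change of -0.64 with SLNCR1 (adjusted p = 1.04e-06), 0.12 with SLNCR1 conserved (adjusted p = 1) and -0.54 with SLNCR1 delta conserved (adjusted p = 2.49e-08). Between the 2 receptors the limma intervals did not overlap: with SLNCR1 the log2 difference from vector of NR1D1 had a 95% interval of -1.76 to -1.46, and that of NR1D2 one of -0.81 to -0.49.

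DEC1 and DEC2 are closely related E-box repressors, and their genes behaved differently. BHLHE40 (DEC1), which is also induced by hypoxia, had 1154 and 1133 normalized counts with SLNCR1, 1263 and 1277 with SLNCR1 conserved, 1265 and 1262 with SLNCR1 delta conserved and 1162 and 1261 with vector. All 8 libraries of BHLHE40 lay between 1133 and 1277. The SLNCR1 pair was just below the vector pair and the other construct pairs just above it, within 1 count for SLNCR1 delta conserved. In the authors' deposited tables the log2 fold change of BHLHE40 was -0.08 with SLNCR1, 0.05 with SLNCR1 conserved and 0.06 with SLNCR1 delta conserved (adjusted p = 1 in each). The limma 95% interval was -0.22 to 0.06 for SLNCR1 and -0.08 to 0.20 for SLNCR1 delta conserved, and neither interval reached the smallest fall among the other 9 genes, -0.54.

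BHLHE41 (DEC2), tied to short sleep in humans, had 108 and 109 normalized counts with SLNCR1, 565 and 601 with SLNCR1 conserved, 134 and 99.1 with SLNCR1 delta conserved and 573 and 639 with vector. The SLNCR1 mean of BHLHE41 was 5.60-fold lower and the SLNCR1 delta conserved mean 5.20-fold lower than the vector mean, with no overlap between these pairs and the vector pair. Its log2 fold change in the authors' deposited tables was -2.48 with SLNCR1 (adjusted p = 1.57e-51), the lowest p of that table, -0.07 with SLNCR1 conserved (adjusted p = 1) and -2.38 with SLNCR1 delta conserved (adjusted p = 3.84e-42). SSPN, whose exons overlap 4.10% of those of BHLHE41 on the other strand, held at most 3 reads in any library.

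C1orf51 (CIART) was the scarcest of the 10 genes and had the largest estimated fall. It had 6 and 12 reads with SLNCR1, 58 and 76 with SLNCR1 conserved, 8 and 9 with SLNCR1 delta conserved and 101 and 68 with vector. These were 6.0 and 13.2 normalized counts with SLNCR1, 51.3 and 75.5 with SLNCR1 conserved, 8.84 and 11.3 with SLNCR1 delta conserved and 81.2 and 60.0 with vector. The low pairs were far from the vector pair, but with so few reads the libraries of a group also differed widely, so the size of the fall is known less well than for the other genes. The log2 fold change in the authors' deposited tables was -2.88 with SLNCR1 (adjusted p = 9.67e-07), -0.17 with SLNCR1 conserved (adjusted p = 1) and -2.81 with SLNCR1 delta conserved (adjusted p = 4.91e-07). The limma log2 difference from vector, -2.83 ± 0.34 (SE) with SLNCR1 and -2.69 ± 0.34 with SLNCR1 delta conserved, had a 95% interval of -3.54 to -2.12 with SLNCR1, which overlapped that of BHLHE41, -2.73 to -2.21.

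**Figure D2:**
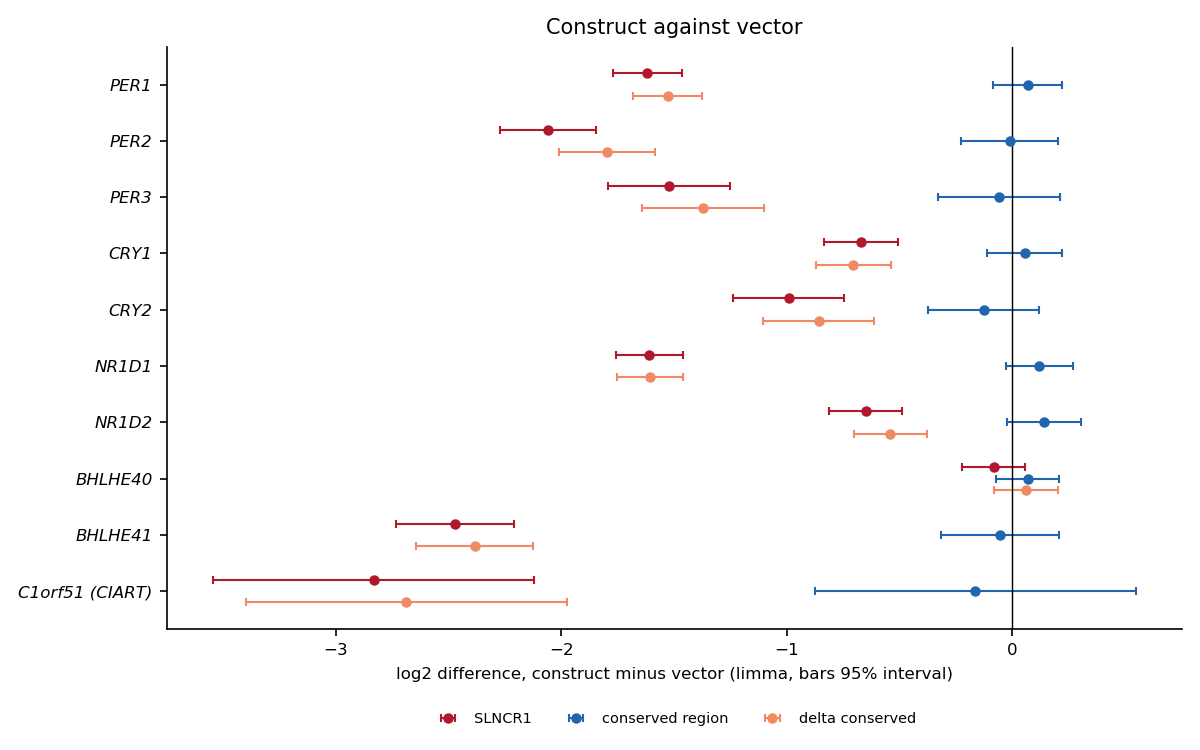
The limma log2 difference of each construct from vector on log2(normalized count + 1) for the 10 genes (x axis; 2 libraries a group; bars, 95% interval). The differences of SLNCR1 and SLNCR1 delta conserved lie between -2.83 and -0.54 for 9 genes, those of SLNCR1 conserved lie between -0.16 and 0.14, and for BHLHE40 all 3 intervals include 0.

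Over the 10 genes, both SLNCR1 libraries were below both vector libraries for all 10, which held for 25.4% of 16058 genes. Both SLNCR1 delta conserved libraries were below for 9 (26% of all genes) and both SLNCR1 conserved libraries for 1, CRY2 (16.7% of all genes). With SLNCR1 conserved, 4 genes were above both vector libraries (CRY1, NR1D1, NR1D2 and BHLHE40; 25.1% of all genes) and 5 overlapped them.

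Because the 9 genes fell by different amounts, the makeup of the repressor pool differed between groups. Per kilobase of exon, the SLNCR1 cells had BHLHE40 highest (mean 298 normalized counts per kb), then NR1D1 (197), NR1D2 (184), CRY1 (95.1), PER1 (87.7), BHLHE41 (27.4), CRY2 (22.4), PER2 (17.1), PER3 (10.9) and C1orf51 (3.55). The library ranges of NR1D1 and NR1D2 and of CRY1 and PER1 overlapped, so the order within these 2 pairs was not separated. With SLNCR1 conserved NR1D1 was highest (652 normalized counts per kb, with BHLHE40 next at 331), and with SLNCR1 delta conserved BHLHE40 was (329). NR1D2 (199) and NR1D1 (197) came next there, with library ranges that overlapped, so their order was not separated. In vector cells the highest was NR1D1 (600 normalized counts per kb), followed by BHLHE40 (316), NR1D2 (289), PER1 (270), BHLHE41 (153), CRY1 (151), PER2 (71.4), CRY2 (44.6), PER3 (31.6) and C1orf51 (26.2). The vector ranges overlapped for NR1D2 and PER1, for BHLHE41 and CRY1 and for PER3 and C1orf51. Lengths are from GENCODE 29; which annotation release the authors counted on is not stated in the material used here.

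Ratios within a library do not depend on its scaling. There were 0.0935 and 0.0957 BHLHE41 reads for each BHLHE40 read with SLNCR1, 0.447 and 0.470 with SLNCR1 conserved, 0.106 and 0.0785 with SLNCR1 delta conserved and 0.493 and 0.507 with vector. The NR1D1 to NR1D2 ratio of reads was 0.488 and 0.530 with SLNCR1, 0.946 and 1.01 with SLNCR1 conserved, 0.497 and 0.448 with SLNCR1 delta conserved and 0.942 and 1.04 with vector. Both ratios thus separated the groups in the same way as the levels did. The PER2 to PER1 ratio was lower in both low groups, at 0.209 and 0.174 with SLNCR1 and 0.212 and 0.217 with SLNCR1 delta conserved, against 0.253 and 0.240 with SLNCR1 conserved and 0.271 and 0.250 with vector. The PER3 to PER1 ratio overlapped between the groups, with 0.149 and 0.139 with SLNCR1 and 0.151 and 0.121 with vector. The CRY2 to CRY1 ratio was 0.294 and 0.284 with SLNCR1, 0.319 and 0.318 with SLNCR1 conserved, 0.348 and 0.303 with SLNCR1 delta conserved and 0.354 and 0.370 with vector. Every construct library was thus below both vector libraries, and the SLNCR1 conserved and SLNCR1 delta conserved pairs overlapped, so this ratio did not split the groups as the levels did. These ratios are given as descriptions, with no test.

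**Figure D3:**
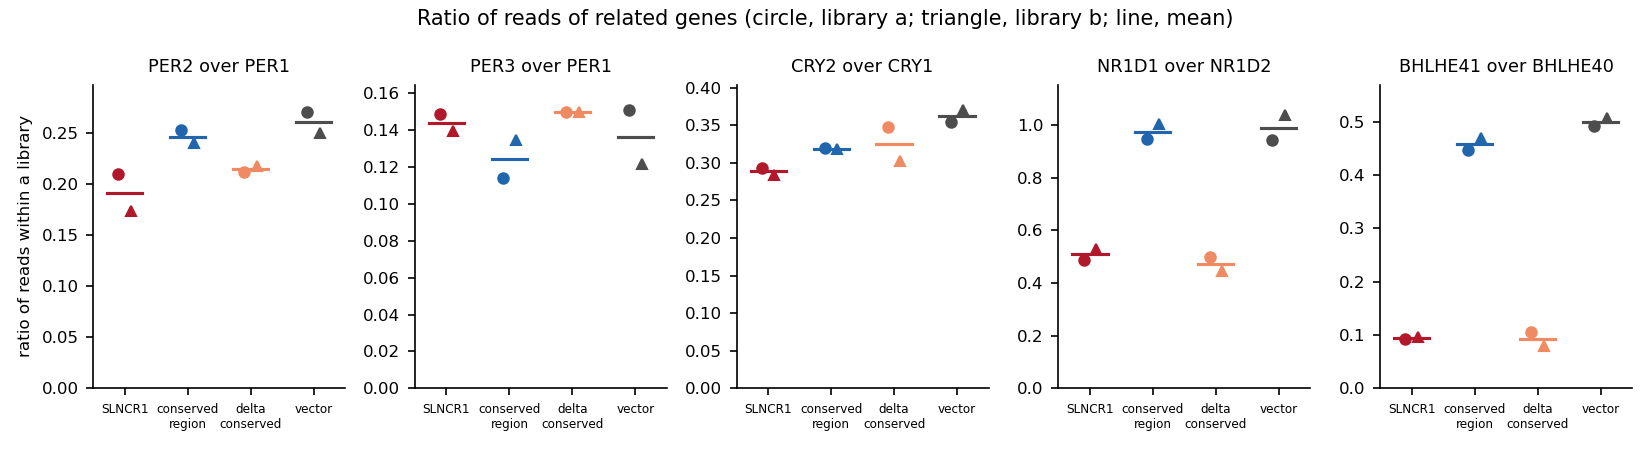
Ratio of the reads of related genes within each library (y axis, from 0; circle, library a; triangle, library b; line, mean) by group (x axis). The BHLHE41 to BHLHE40 ratio is near 0.1 with SLNCR1 and SLNCR1 delta conserved and between 0.447 and 0.507 in the other libraries, while the PER3 to PER1 ratio overlaps between groups.

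No deposited table compares constructs with each other, so these comparisons rest on limma over the recovered libraries, and they use no vector library in the difference itself. SLNCR1 and SLNCR1 delta conserved differ by the conserved part, and 0 of the 10 genes were called between them, as were 0% of all 16058 genes. At an unadjusted p under 0.05 there were 2 of the 10, PER2 and BHLHE40, and 1284 of all. The share of all genes called depended on SLNCR1 library a. Without it that group held only library b, which lay apart on the second principal component, so calls from that fit are not counted here. PER2 was lower with SLNCR1 by a log2 of -0.26 (95% interval -0.47 to -0.05, adjusted p = 0.538) and BHLHE40 by -0.14 (95% interval -0.28 to -0.003, adjusted p = 0.614). For NR1D1 the difference was -0.003 with an interval of -0.15 to 0.15. For CRY1 it was 0.03 (-0.13 to 0.20), for PER1 -0.09 (-0.24 to 0.06) and for BHLHE41 -0.09 (-0.35 to 0.17). The widest interval was that of C1orf51, -0.86 to 0.57, which is a fold of 0.553 to 1.48. The missing calls do not show that the 2 constructs act alike on these genes.

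SLNCR1 conserved against SLNCR1 delta conserved gave 9 of the 10 genes higher with SLNCR1 conserved, where 5.79% of 16058 genes were called higher. The log2 difference was 1.60 ± 0.07 (SE) for PER1, 1.79 ± 0.10 for PER2, 1.73 ± 0.07 for NR1D1 and 2.33 ± 0.12 for BHLHE41, and the smallest of the 9 was 0.68 ± 0.08 for NR1D2. The limma adjusted p of the 9 lay between 7.19e-11 (NR1D1) and 0.000588 (CRY2). BHLHE40 differed by 0.01 (95% interval -0.13 to 0.15, adjusted p = 0.967). SLNCR1 against SLNCR1 conserved gave 9 of the 10 lower with SLNCR1, where 9.47% of all genes were called lower, with log2 differences between -2.67 (C1orf51) and -0.73 (CRY1). BHLHE40 was again the 1 gene not called, at -0.15 (95% interval -0.29 to -0.01, limma adjusted p = 0.154).

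**Figure D4:**
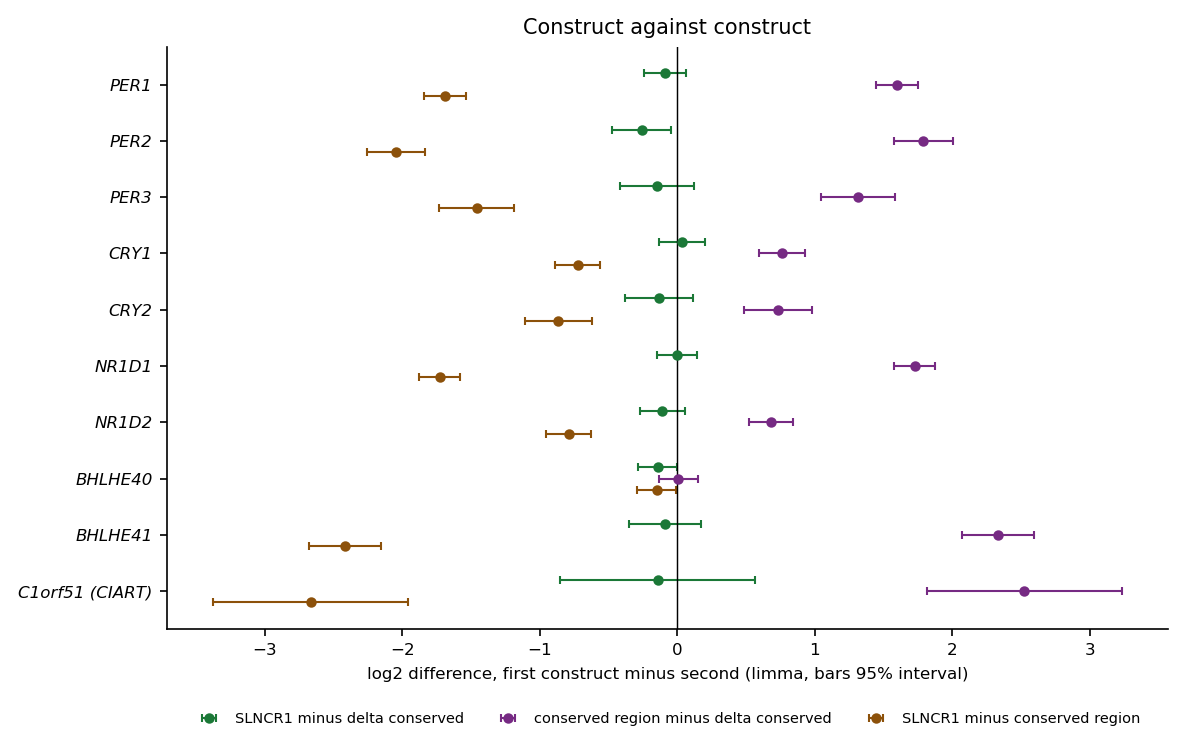
The limma log2 difference between constructs for the 10 genes (x axis, first construct minus second; 2 libraries a group; bars, 95% interval). SLNCR1 minus SLNCR1 delta conserved lies between -0.26 and 0.03, while both comparisons with SLNCR1 conserved lie far from 0 for every gene but BHLHE40. For BHLHE40 the interval of SLNCR1 minus SLNCR1 conserved ends just below 0 (-0.29 to -0.01), and the other includes 0 (-0.13 to 0.15).

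The other genes of the clock were counted from lists drawn up by role, beside the shares among all genes. The authors called 0.844% of all genes lower and 0.0388% higher with SLNCR1, 0% lower and 0.0175% higher with SLNCR1 conserved and 1.14% lower and 1.11% higher with SLNCR1 delta conserved. At an unadjusted p under 0.05 their tables held 6.25% of all genes with SLNCR1, 1.34% with SLNCR1 conserved and 7.98% with SLNCR1 delta conserved. Limma called 7.41% of all genes lower with SLNCR1 and 5.26% lower with SLNCR1 delta conserved. It called 632 of 16058 genes higher with SLNCR1 and 833 higher with SLNCR1 delta conserved. The 6 activators (CLOCK, ARNTL, ARNTL2, NPAS2 and the ROR receptors RORA and RORB) had 0 calls by the authors with SLNCR1, SLNCR1 conserved or SLNCR1 delta conserved. At an unadjusted p under 0.05 there were 1 with SLNCR1, 0 with SLNCR1 conserved and 3 with SLNCR1 delta conserved. Limma called 1 of them, ARNTL, lower with SLNCR1 (log2 difference -0.51 ± 0.11 (SE), adjusted p = 0.00723) and with SLNCR1 delta conserved (-0.46 ± 0.11, adjusted p = 0.0126), and none with SLNCR1 conserved, where limma had 0 of the 6 at an unadjusted p under 0.05. The authors' deposited tables gave ARNTL an adjusted p of 0.164 with SLNCR1 and 0.0847 with SLNCR1 delta conserved. ARNTL is named here after its values were seen.

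The clock output factors of the bZIP family bind the D-box printed above for PER3. DBP, TEF and HLF are activators and NFIL3 is the repressor of the same element. By the authors' adjusted p, 3 of these 4 were lower with SLNCR1 and with SLNCR1 delta conserved, and 0 were called with SLNCR1 conserved, where 1 had an unadjusted p under 0.05 and limma called 0. Limma called the same 3 and, with SLNCR1 delta conserved, NFIL3 as well. DBP had 273 and 296 normalized counts with SLNCR1, 536 and 595 with SLNCR1 conserved, 278 and 232 with SLNCR1 delta conserved and 643 and 681 with vector. TEF had 197 and 219 with SLNCR1, 505 and 501 with SLNCR1 conserved, 227 and 194 with SLNCR1 delta conserved and 509 and 501 with vector. HLF was nearly lost in both low groups, with 5.0 and 2.19 normalized counts with SLNCR1, 46.9 and 56.6 with SLNCR1 conserved, 5.52 and 3.76 with SLNCR1 delta conserved and 53.9 and 45.9 with vector. The 3 activators of the D-box thus split the libraries as the repressor genes did. The log2 fold changes in the authors' deposited tables were -1.22, -1.28 and -3.79 with SLNCR1 for DBP, TEF and HLF (adjusted p = 1.74e-16, 2.36e-15 and 3.23e-09) and -1.38, -1.27 and -3.43 with SLNCR1 delta conserved (adjusted p = 2.06e-26, 1.83e-18 and 5.83e-08).

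Of 12 E-box and clock-controlled output genes, 11 were tested with SLNCR1 and with SLNCR1 delta conserved, and 4 were lower in each: PPARGC1A, a coactivator of mitochondrial genes, and the zinc-finger factors KLF10, KLF11 and KLF15. With SLNCR1 conserved 0 of 12 were called, 1 had an unadjusted p under 0.05, and limma called 0. PPARGC1A had 45.0 and 26.3 normalized counts with SLNCR1, 105 and 119 with SLNCR1 conserved, 57.5 and 55.2 with SLNCR1 delta conserved and 135 and 111 with vector. KLF15, a glucocorticoid-responsive factor, had 104 and 85.5 with SLNCR1, 168 and 196 with SLNCR1 conserved, 88.4 and 72.7 with SLNCR1 delta conserved and 181 and 205 with vector. The median log2 fold change of the output list in the authors' deposited tables was -0.25 with SLNCR1, -0.05 with SLNCR1 conserved and -0.24 with SLNCR1 delta conserved, so the list as a whole moved less than its 4 called members.

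Genes whose proteins modify or accompany the repressors were counted next. Of 15 kinases, ubiquitin ligases and deubiquitinases of PER and CRY, the authors' deposited tables called 0 with SLNCR1 (2 at an unadjusted p under 0.05, limma 0), 0 with SLNCR1 conserved (1 at an unadjusted p under 0.05, limma 0) and 1 higher with SLNCR1 delta conserved, the ligase subunit DDB1. Limma called DDB1 and the kinase subunit CSNK2A1 there. DDB1 had 4024 and 4057 normalized counts with SLNCR1, 3678 and 3874 with SLNCR1 conserved, 4047 and 4301 with SLNCR1 delta conserved and 3394 and 3626 with vector. Of 12 partners and corepressors the authors called 0 with SLNCR1 (2 at an unadjusted p under 0.05, limma 0), 0 with SLNCR1 conserved (0 at an unadjusted p under 0.05, limma 0) and 2 higher with SLNCR1 delta conserved, the PER-binding protein NONO and the helicase DDX5. NONO had 2706 and 2777 with SLNCR1, 2480 and 2669 with SLNCR1 conserved, 2813 and 2983 with SLNCR1 delta conserved and 2302 and 2468 with vector.

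Inputs that reach the period genes from outside the loop were counted as well. A list of 10 genes held genes that respond to the factor CREB and its coactivators CRTC1 and CRTC2. Of these the authors called 0 with SLNCR1 (1 at an unadjusted p under 0.05, limma 1). They called 0 with SLNCR1 conserved (2 at an unadjusted p under 0.05, limma 0) and 0 with SLNCR1 delta conserved (0 at an unadjusted p under 0.05, limma 0). The 1 limma call with SLNCR1 was NR4A1, higher. Of the glucocorticoid-responsive genes the authors called 0 of 9 with SLNCR1 (1 at an unadjusted p under 0.05, limma 1), 0 of 8 with SLNCR1 conserved (1 at an unadjusted p under 0.05, limma 0) and 2 of 8 with SLNCR1 delta conserved, ERRFI1 and MT2A, both higher. MT2A, a metallothionein, was the limma call with SLNCR1, with 605 and 647 normalized counts with SLNCR1, 518 and 583 with SLNCR1 conserved, 640 and 682 with SLNCR1 delta conserved and 481 and 534 with vector. KLF15, also glucocorticoid-responsive but counted above with the output genes, went the other way. Its log2 fold change in the authors' deposited tables was -1.02 with SLNCR1 and -1.26 with SLNCR1 delta conserved, called lower in each.

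**Figure D5:**
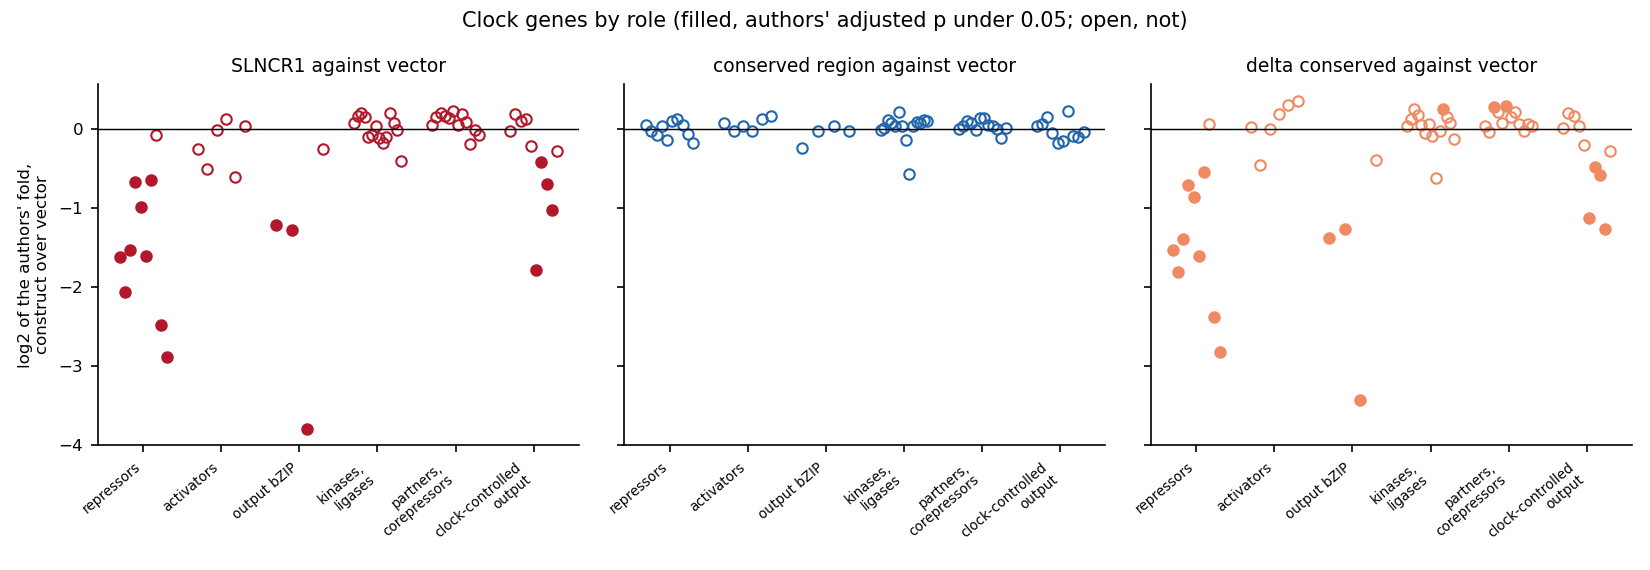
The log2 fold change of the authors' deposited tables for the repressor genes and 5 further lists of clock genes by role (x axis), with 1 panel for each construct against vector; filled points passed an adjusted p of 0.05, and genes with a deposited mean under 10 are not drawn. Filled points lie below 0 in the repressor, output bZIP and clock-controlled output lists with SLNCR1 and SLNCR1 delta conserved, and no point is filled with SLNCR1 conserved.

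Markers of the cell types that could be mixed in were counted beside these lists. The summed normalized counts of 5 keratinocyte markers were 708 to 768 with SLNCR1, 667 to 735 with SLNCR1 conserved, 719 to 774 with SLNCR1 delta conserved and 646 to 690 with vector. The sums of 5 leukocyte markers were 19.0 to 23.0 with SLNCR1, 19.9 to 29.2 with SLNCR1 conserved, 18.8 to 19.9 with SLNCR1 delta conserved and 23.8 to 27.3 with vector. The sums of 5 endothelial markers were 304 to 332 with SLNCR1, 291 to 301 with SLNCR1 conserved, 340 to 367 with SLNCR1 delta conserved and 325 to 337 with vector, and PECAM1 was at 0 in all 8 libraries. Of these 15 markers, the authors' deposited tables gave an adjusted p to 11 with SLNCR1, 12 with SLNCR1 conserved and 13 with SLNCR1 delta conserved, and limma was fitted to 6. None of those was called, and at an unadjusted p under 0.05 in the authors' tables there was 1, KRT10 with SLNCR1 delta conserved. The sums of 5 fibroblast markers were 683 to 697 with SLNCR1, 658 to 824 with SLNCR1 conserved, 775 to 806 with SLNCR1 delta conserved and 734 to 759 with vector. COL3A1, a collagen, was called higher with SLNCR1 delta conserved, at 4.0 and 4.38 normalized counts with SLNCR1, 53.1 and 1.99 with SLNCR1 conserved, 50.8 and 45.1 with SLNCR1 delta conserved and 4.02 and 3.53 with vector. COL3A1 was thus high in 1 SLNCR1 conserved library and both SLNCR1 delta conserved libraries, a split that the repressor genes did not follow. Of 9 melanocyte markers 1 was called by the authors, SOX10, higher with SLNCR1 delta conserved, and limma called it higher with SLNCR1 as well. MITF went the other way and was not called against vector. Its log2 fold change in the authors' deposited tables was -0.24 with SLNCR1, 0.09 with SLNCR1 conserved and -0.28 with SLNCR1 delta conserved. Between constructs, limma called MITF lower with SLNCR1 and with SLNCR1 delta conserved than with SLNCR1 conserved, a split like that of the repressor genes.

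For each of the 9 called genes the 3 genes with the most similar profile were found by Pearson's r of log2(normalized count + 1) over the 8 libraries, among 12432 genes with a mean of at least 50. The r lay between 0.990 and 0.999, and because the libraries fall into 2 sets it mostly reflects that split and carries no p. Only 1 of these 27 genes was itself a repressor, PER1 for PER2. PER1 was most like CSRNP1 (r = 0.997), with RP11-875O11.3 and EGR2 next. EGR2, a zinc-finger transcription factor, had 31.0 and 32.9 normalized counts with SLNCR1, 237 and 257 with SLNCR1 conserved, 33.1 and 37.6 with SLNCR1 delta conserved and 197 and 205 with vector. PER2 was most like INHBE, which encodes an inhibin subunit, and then BTN2A2 and PER1. PER3 was most like HLA-L, UIMC1 and ZNF805, CRY1 like ZNF79, PPM1D and BRD1, and CRY2, among others, like OTUD3 and SYNPO. NR1D1 was most like NEURL3, CCT6P1 and ZNF773, and NR1D2 like DNAH17, ARHGEF28 and FAM179B. HLA-L and CCT6P1 are pseudogenes, whose counts are uncertain because reads can be shared with their gene families. NEURL3 had 38.0 and 31.8 normalized counts with SLNCR1, 250 and 263 with SLNCR1 conserved, 32.0 and 27.6 with SLNCR1 delta conserved and 206 and 236 with vector. BHLHE41 was most like the output factor TEF (r = 0.997), then ADIRF-AS1 and MAP3K14, and C1orf51 like METTL22, SETD4 and ZNF583.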

How the data were processed

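RNA selected for poly(A) was sequenced from 8 libraries with a kit that, as the labels' protocols name it, does not mark strand. The submitters' processing notes name STAR, featureCounts, DESeq and the hg19 build, without versions or settings. Each deposited table holds, per the file headers, group means of scaled reads, a signal normalized within that table, with the fold change as the ratio of construct to vector (log2 taken here) and the authors' own p-values. Calls against vector are those at the authors' deposited adjusted p under 0.05.

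A deposited mean combines whole reads of 2 libraries, each divided by its size factor. Solving for them gave 1 solution for 100% of genes with SLNCR1 and with vector, 99.98% with SLNCR1 conserved and 99.997% with SLNCR1 delta conserved, and median-of-ratios factors of the solved reads equalled those in the means. Column names give no replicate number. Over all 8 libraries, scaled by median-of-ratios factors, log2(normalized count + 1) was tested with limma 3.58.1 (R 4.3.3; variance trend; 16058 genes, mean at least 10; 4 residual and 13.6 prior degrees of freedom; Benjamini-Hochberg adjustment), a step tested on simulated data. The pseudocount understates changes of scarce genes. Depth was 8222868 to 12015394 reads a library. Python 3.11.15 with pandas 2.3.3 and numpy 2.4.6 was used.

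The 10 genes and all lists were chosen with earlier results of these data known. Named genes are the 10, up to 4 called genes of each list by lowest p, the 3 most similar genes for each of 9, LINC00511, and genes that complete a small count or overlap a repressor gene, which were chosen after their values were seen. A similar gene and a list gene are not reported here.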

Additional observations from a re-analysis of the deposited data

How the results depend on the processing

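The members called and the log2 differences were recomputed with other thresholds (adjusted p under 0.1 and under 0.01), with the authors' p-values adjusted anew over genes whose mean reached 10, with pseudocounts of 0.5 and 5, with trimmed-mean and library-total scaling, without the filter on low counts, with only the groups compared and without each library in turn. Counts of called members and each member's side of the threshold stayed as reported in all of them, and the 9 called genes kept their direction where they were called. Log2 differences of genes not called crossed 0 for 5 genes with SLNCR1 conserved against vector, PER1 (-0.01 to 0.16), PER2 (-0.05 to 0.02), PER3 (-0.18 to 0.07), BHLHE41 (-0.13 to 0.03) and C1orf51 (-0.44 to 0.11). They crossed 0 for 4 with SLNCR1 against SLNCR1 delta conserved, CRY1 (-0.05 to 0.12), NR1D1 (-0.05 to 0.05), BHLHE41 (-0.30 to 0.12) and C1orf51 (-0.66 to 0.37). For the 9 called genes the largest limma adjusted p under any alternative was 0.00609 with SLNCR1 against vector, 0.0152 with SLNCR1 delta conserved against vector, 0.0155 with SLNCR1 conserved against SLNCR1 delta conserved and 0.00320 with SLNCR1 against SLNCR1 conserved. Between SLNCR1 and SLNCR1 delta conserved the smallest was 0.0619, for PER2. C1orf51 could not be fitted there with only the groups compared, since its mean was under 10. The background moved more than the members. Of all limma calls of SLNCR1 against vector, 34.7% were higher, against 16.7% when scaled by trimmed means and 26.2% by library totals, and of SLNCR1 delta conserved 49.6%, against 27.1% and 30.2%. Without the filter on low counts these shares were 6.53% and 37.2%, and with only the groups compared 6.45% and 48.4%. All calls of SLNCR1 against vector numbered 1822, against 490 and 837 in those fits, and of SLNCR1 delta conserved 1678, against 656 and 2374. The shares moved as well when a library was left out. Such a fit leaves 1 library in a group, so its calls are not counted here. Between SLNCR1 and SLNCR1 delta conserved all calls numbered 0, and with only the groups compared 2 genes were called, lower with SLNCR1. The number of calls was not stable when SLNCR1 library a was left out, which left only the outlying library b in that group. No paired analysis was possible because the columns hold group means and carry no replicate number. Counts of 6 to 12 reads for C1orf51 in the low groups limit its precision.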
